A study of Mus musculus with 12 samples.

Results

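Oligodendrocytes make the myelin of the brain and spinal cord, and 30 genes that mark their lineage were followed from precursor to mature cell in whole spinal cord RNA. They are 30 of the 38924 genes in the deposited tables and were picked by symbol from known markers, with earlier results of these data known, and all 30 were expressed highly enough to be tested. By role they are 17 genes of mature myelin and the mature cell, 3 genes of newly formed cells, 4 genes of precursors and 6 transcription factors of the lineage.

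The 12 mice, all 8 weeks old, comprised 6 wild-type animals (WT) and 6 that carried 1 copy of the P278KY allele of Gars and 1 normal copy (P278KY/+), with 3 females and 3 males of each genotype. Gars encodes glycyl-tRNA synthetase, which joins glycine to its transfer RNA, and dominant alleles of the human gene cause Charcot-Marie-Tooth neuropathy type 2D, a disease of peripheral axons. All mice, WT included, had a mixed C57BL/6J and CAST background (B6J;CAST in the labels), and the allele is given as the genotype of the whole mouse, not of glia alone. Each library is 1 mouse and is named by its group and mouse number.

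Oligodendrocyte precursors carry the growth factor receptor Pdgfra and the proteoglycan Cspg4, and they divide and spread through the cord under Olig2 and Sox10. When they leave the cell cycle they pass through a short stage marked by Enpp6, Bcas1 and Gpr17, and Myrf then switches on the genes of compact myelin. Each mature cell wraps several axons and is joined to neighbouring astrocytes through gap junctions.

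Libraries held 26982140 to 39339999 expected counts, the estimated reads per gene. Levels are given below in 2 units. CPM, counts scaled to a common library total, compares mice, and TPM, which also takes account of transcript length, compares genes. The following features of the libraries bear on the results. The 10 skeletal muscle markers summed to 1190 to 8706 CPM in mice 1 to 4 and to 36.2 to 227 CPM in the others. The 6 sensory ganglion markers summed to 22.8 to 60.1 CPM in mice 7, 10 and 11 and to 1.80 to 10.1 CPM in the others. The 14 Schwann cell markers, of the cells that make myelin on nerve roots, summed to 1704 to 2898 CPM in WT against to 590.5 to 1835 CPM in P278KY/+ mice.

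All 30 markers were present, from 9.18 TPM for Cspg4 to 16670 TPM for Mbp in WT. Together they made up 2.22% to 2.96% of all TPM in WT and 2.22% to 2.66% in P278KY/+ mice, so the ranges overlapped. In P278KY/+ mice 3 genes fell and none rose, by edgeR's quasi-likelihood test with Benjamini-Hochberg adjustment over 17980 genes and sex in the model. The 3 were Trf, Gjb1 and Ptprz1. By the same test 2.95% of all genes fell, 2.36% rose and 5.32% changed either way, against 3 of 30 that fell here. Without adjustment 10 of the 30 had p below 0.05, 7 lower and 3 higher, which is 33.3% against 20.2% of all genes tested. Of the 30 estimates 21 lay below 0, or 70% against 51.1% of all genes, and their median log2 change was -0.049 against -0.003 over all genes. DESeq2 passed 5 of the 30, all lower, and 1617 of all genes, where edgeR passed 956. By limma voom 4 of the 30 passed, all lower, and 1467 of all genes. By limma on log2(TPM + 1) 2 of the 30 passed as lower and 1 as higher. Of all genes 1606 passed, 248 lower and 1358 higher, and the median of all genes on that scale was 0.062. In bulk tissue fewer cells of a type and less RNA per cell cannot be told apart.

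**Figure D1:**
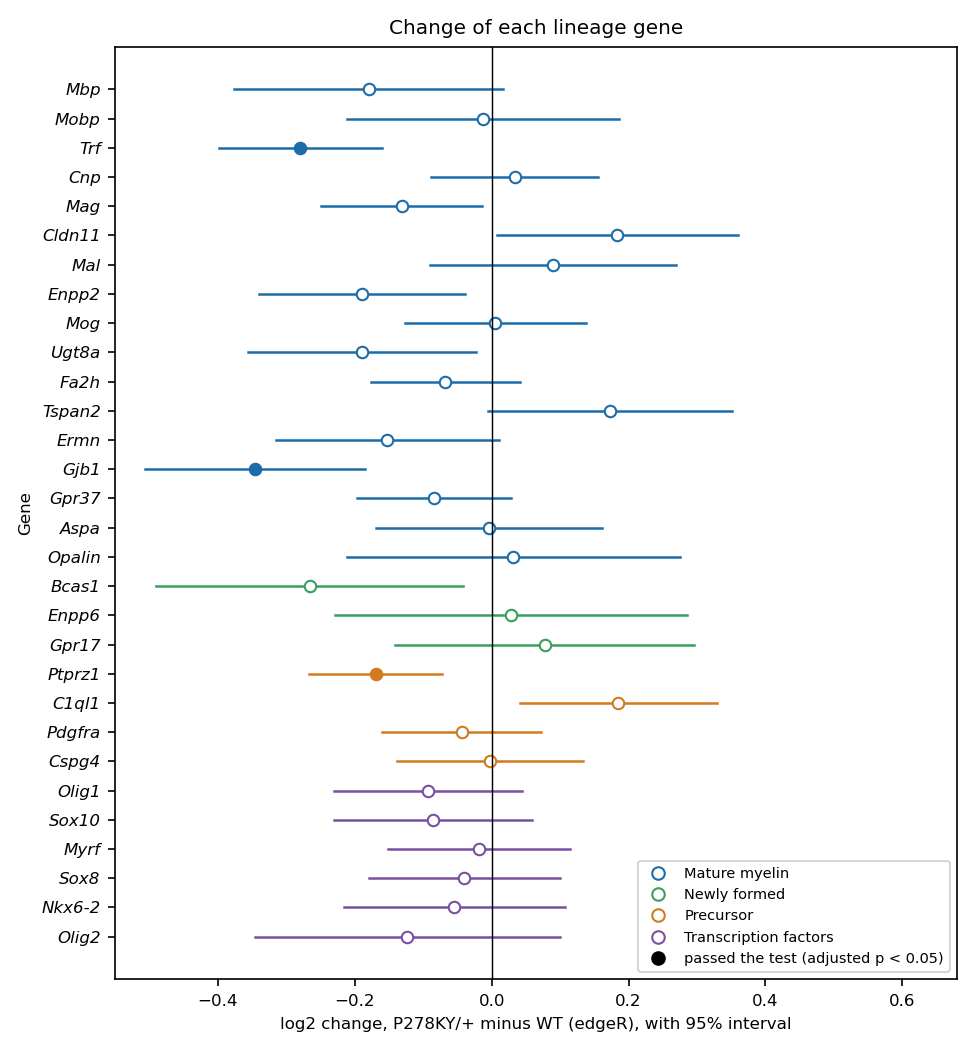
Log2 change between P278KY/+ and WT mice (horizontal axis, edgeR) with its 95% interval for each of the 30 lineage genes (vertical axis), coloured by stage and ordered by level within a stage. Filled points passed the test: Trf, Gjb1 and Ptprz1, at -0.28, -0.35 and -0.17.

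Among the 17 genes of the mature cell, Trf and Gjb1 fell, where 2.95% of all genes did. The other 15, the main structural proteins of myelin among them, did not pass the test. The median log2 change of the 17 was -0.068. Trf encodes transferrin, the iron carrier that oligodendrocytes make for themselves, and was behind only Mbp and Mobp in level at 1198 ± 72.6 TPM (SD, n = 6) in WT. It lies at chr9:103204001-103230444 on the minus strand (GENCODE M21, GRCm38). In WT mice Trf ran from 1385 to 1615 CPM with a median of 1468, and in P278KY/+ mice from 1075 to 1294 CPM with a median of 1258. Every P278KY/+ mouse lay below every WT mouse, a separation found for 360 of the 17980 genes (2%), and the lowest was male 7. The log2 change was -0.28 (SE 0.05, edgeR adjusted p = 0.0083), which is a fall of 17.6%. The call held in all 12 fits that left out 1 mouse, with adjusted p at most 0.0285. It was lost when mice 7, 10 and 11, those with the high ganglion markers, were left out together, at a log2 change of -0.20 and adjusted p = 0.0671. The protein-coding model Gm20425 overlaps Trf on the same strand. It held 1.78% to 3.11% as many expected counts as Trf in the 12 libraries.

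Gjb1 encodes connexin 32, a gap junction protein of oligodendrocytes and Schwann cells whose human gene is mutated in X-linked Charcot-Marie-Tooth disease. In WT it stood at 79.8 to 97.9 CPM with a median of 90.0, and in P278KY/+ mice at 61.2 to 81.5 CPM with a median of 67.6. In all, 5 of the 6 P278KY/+ mice lay below all WT mice, and female 9 lay just above the lowest of them, male 5. The log2 change was -0.35 (SE 0.07, edgeR adjusted p = 0.0147), which is a fall of 21.4%. This was the greatest decrease among the 30 genes. The call held in all 12 fits without 1 mouse, with adjusted p at most 0.0460, and was lost without mice 7, 10 and 11 (log2 change -0.27, adjusted p = 0.129). With the mean of 33 other genes of the mature cell as a further term, added after seeing the data, Gjb1 also lost its call (log2 change -0.22, adjusted p = 0.104), while Trf kept its own at a smaller change (-0.17, adjusted p = 0.0381). The median log2 change of those 33 genes was itself -0.096, so the term overlaps with genotype. With it 360 of all genes passed against 956 without. A call lost or kept with it does not show which cells changed.

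**Figure D2:**
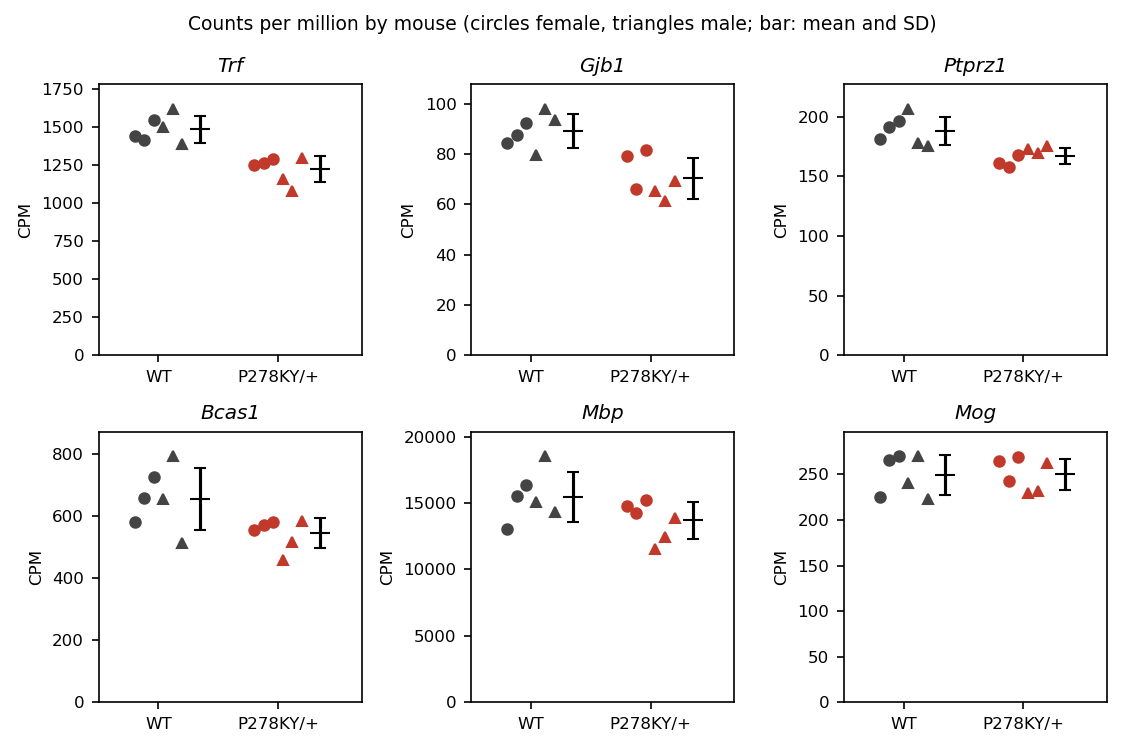
CPM of 6 lineage genes in each mouse (vertical axes from 0), with WT in grey, P278KY/+ in red, circles for females, triangles for males, and the mean with its SD over 6 mice beside each group. For Trf all P278KY/+ mice sit below all WT mice, for Gjb1 and Ptprz1 5 of 6 do, and for Bcas1, Mbp and Mog the groups overlap more.

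The annotation gives Gjb1 3 transcripts that share their second exon, which holds the coding sequence, and differ in a short first exon. The abundance-weighted transcript length in the deposited tables was 1585 bases in all 12 libraries. That is the length of Gjb1-203, which starts at position 101383736 of chromosome X (plus strand, GRCm38), and differs from 1513 bases for Gjb1-202 and 1565 bases for Gjb1-201. The authors' annotation is not known, so this match to Gjb1-203 rests on the GENCODE M21 lengths and does not show which start the reads came from. The 250 bases before the RefSeq start nearest to each transcript (GRCm38.p6, plus strand) are shown because the listed length matches 1 of 3 starts that differ in sequence. Capitals mark ACAAAG or ACAATG on either strand, letters that SOX factors such as Sox10 are known to bind.
Gjb1-203, chrX:101383482-101383731: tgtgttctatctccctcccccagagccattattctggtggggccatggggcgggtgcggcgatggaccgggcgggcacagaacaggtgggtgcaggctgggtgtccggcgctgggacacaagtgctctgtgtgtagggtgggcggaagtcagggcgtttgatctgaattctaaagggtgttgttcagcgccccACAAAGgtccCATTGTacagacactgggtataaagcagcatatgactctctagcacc
Gjb1-202, chrX:101376126-101376375: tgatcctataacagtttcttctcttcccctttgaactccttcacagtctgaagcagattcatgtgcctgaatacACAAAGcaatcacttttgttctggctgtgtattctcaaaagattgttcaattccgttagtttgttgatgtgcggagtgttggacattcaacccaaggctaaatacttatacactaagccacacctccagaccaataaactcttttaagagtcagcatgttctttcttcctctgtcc
Gjb1-201, chrX:101376985-101377234: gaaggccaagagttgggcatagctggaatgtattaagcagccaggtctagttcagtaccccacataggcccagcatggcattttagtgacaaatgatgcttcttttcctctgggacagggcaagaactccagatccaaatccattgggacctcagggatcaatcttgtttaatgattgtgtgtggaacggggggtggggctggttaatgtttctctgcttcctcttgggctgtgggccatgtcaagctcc
The window before Gjb1-203 held 1 ACAAAG on the plus strand, its first base 57 bases before the start, and 1 ACAATG on the minus strand, 47 bases before it. Both motifs in 1 window occurred in 1.91% of 32851 such windows in the RefSeq table, and either motif in 25.2%. The window before Gjb1-202 held 1 ACAAAG, and that before Gjb1-201 held neither. The table had windows for 20 of the 30 genes, and 11 of their 26 windows (42.3%) held either motif. A match of letters is a description and not a measured binding site.

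The abundant proteins of compact and outer myelin gave small estimates. Mbp, the basic protein that holds the inner faces of the membrane together, was the highest of the 30 at 16670 ± 2026 TPM (SD, n = 6) in WT, or 1.39% to 1.97% of all TPM in WT and 1.33% to 1.7% in P278KY/+ mice. Its CPM ran from 13010 to 18510 (median 15300) in WT and from 11550 to 15190 (median 14090) in P278KY/+ mice. The groups overlapped, and the log2 change of -0.18 did not pass the test (SE 0.09, edgeR adjusted p = 0.27). Mobp, a second basic protein of the compact sheath, and Mog, a protein of its outermost surface, differed by -0.01 (SE 0.09) and 0.01 (SE 0.06) on the log2 scale. Cnp, an enzyme of the uncompacted channels, differed by 0.03 (SE 0.05), and Mal, a raft protein that carries lipids and proteins to the sheath, by 0.09 (SE 0.08). None of these 4 had an adjusted p below 0.590. Mag, an adhesion molecule on the face next to the axon, stood at 745 to 855 CPM in WT against 634 to 787 CPM in P278KY/+ mice, a log2 change of -0.13 (SE 0.05) with edgeR adjusted p = 0.172.

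A pair of membrane proteins of the mature cell had estimates above 0 without passing the test. Cldn11, the claudin that forms the tight junctions of central myelin, ran from 456 to 616 CPM in WT (median 543) and from 539 to 671 CPM in P278KY/+ mice (median 631). Above all WT mice lay 4 of the 6 P278KY/+ mice, and the log2 change was 0.18 (SE 0.08, edgeR adjusted p = 0.209). Tspan2, a tetraspanin of the sheath, stood at 275 to 390 CPM in WT against 345 to 420 CPM in P278KY/+ mice, a log2 change of 0.17 (SE 0.08, edgeR adjusted p = 0.246).

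Enzymes of myelin lipid and metabolism in the mature group did not pass the test. Ugt8a, which makes galactosylceramide, the chief glycolipid of myelin, had a median of 450 CPM in WT against 379 CPM in P278KY/+ mice, with 4 of 6 below all WT mice. Its log2 change was -0.19 (SE 0.07, edgeR adjusted p = 0.169). Fa2h, which adds a hydroxyl group to the fatty acids of those lipids, differed by -0.07 (SE 0.05). Aspa, which splits N-acetylaspartate to give acetate for lipid synthesis, differed by less than 0.01 at -0.0041 (SE 0.07). Enpp2, the enzyme autotaxin that makes lysophosphatidic acid, ran from 447 to 575 CPM in WT and from 407 to 487 CPM in P278KY/+ mice, with 3 of 6 below all WT mice. Its log2 change of -0.19 (SE 0.07) had edgeR adjusted p = 0.124, and DESeq2 and limma voom passed it, with adjusted p = 0.0492 and 0.0342. Leaving out WT female 1 gave Enpp2 an edgeR adjusted p of 0.0350, and leaving out P278KY/+ female 3 gave Ugt8a one of 0.0378.

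The remaining mature markers overlapped between genotypes. Ermn, a protein of the cytoskeleton in late oligodendrocytes, differed by -0.15 (SE 0.07), Gpr37, a receptor that restrains differentiation, by -0.08 (SE 0.05), and Opalin, a membrane glycoprotein of central myelin, by 0.03 (SE 0.11). Their edgeR adjusted p-values lay between 0.262 and 0.910.

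None of the 3 genes of newly formed cells passed edgeR's test, and 1 had an unadjusted p below 0.05. Their median log2 change was 0.028. That gene was Bcas1, a marker of cells that are starting to make myelin, which mature cells also express. It ran from 512 to 793 CPM in WT (median 657) and from 459.5 to 583 CPM in P278KY/+ mice (median 564). The P278KY/+ mice spanned a narrow band in the lower part of the WT range, with male 6 below it. The log2 change was -0.27 (SE 0.10, edgeR adjusted p = 0.157), and DESeq2 gave adjusted p = 0.0454. Enpp6, a choline phosphodiesterase seen for a short time in new cells, differed by 0.03 (SE 0.11), and Gpr17, a receptor that holds cells before maturation, by 0.08 (SE 0.10). DESeq2 passed 1 of the 3 and limma voom passed none, where they passed 1617 and 1467 of all genes.

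Of the 4 precursor genes 1 fell, where 2.95% of all genes did. The median log2 change of the 4 was -0.023. Ptprz1 encodes a receptor phosphatase of the cell surface, found on precursors and on astrocytes, and lies at chr6:22875502-23052916 on the plus strand. It stood at 175 to 206.5 CPM in WT (median 186.5) and 158 to 175 CPM in P278KY/+ mice (median 169). Below all WT mice lay 5 of the 6 P278KY/+ mice, and male 8 was level with the lowest of them. The log2 change was -0.17 (SE 0.04, edgeR adjusted p = 0.0388), which is a fall of 11.1%. The call was lost in 9 of the 12 fits that left out 1 mouse, each of WT mice 2, 5 and 10 and of P278KY/+ mice 3, 4, 6, 7, 8 and 9, with adjusted p up to 0.0935 without female 4. It was also lost with the mature cell term (adjusted p = 0.139), which overlaps with genotype. On the scale log2(TPM + 1) its change was -0.09 with limma adjusted p = 0.290, on which the median of all genes shifted by 0.062.

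None of the other 3 precursor genes passed edgeR's test, and 1 of them, C1ql1, had an unadjusted p below 0.05. C1ql1, a secreted protein of the complement C1q family made by precursors, was low, at 16.8 to 20.3 CPM in WT (median 18.6) and 18.6 to 23.8 CPM in P278KY/+ mice (median 20.7). Of the 6 P278KY/+ mice 4 lay above all WT mice, and the log2 change was 0.19 (SE 0.06, edgeR adjusted p = 0.115). On the log2(TPM + 1) scale it rose by 0.25 with limma adjusted p = 0.0271, where the median of all genes shifted by 0.062. Pdgfra, the receptor for the growth factor that drives precursor division, differed by -0.04 (SE 0.05), and Cspg4, the proteoglycan NG2, by -0.0029 (SE 0.06). Their edgeR adjusted p-values were 0.698 and 0.988. Fibroblasts and the cells around vessels also express these 2 genes. The 5 fibroblast markers summed to 331.5 to 904 CPM in WT against 245 to 375 CPM in P278KY/+ mice. WT females 1 and 2 were the highest, at 904 and 612 CPM, and the other WT mice reached 388 CPM at most. Any shift in precursors and one in those cells cannot be told apart here.

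None of the 6 transcription factors passed edgeR's test, none had an unadjusted p below 0.05, and none passed DESeq2, limma voom or limma on log2(TPM + 1). Olig1 and Olig2, which specify the lineage, differed by -0.09 (SE 0.06) and -0.12 (SE 0.10) on the log2 scale. Sox10, which is needed at every stage, differed by -0.09 (SE 0.06), and its relative Sox8 by -0.04 (SE 0.06). Myrf, the factor that starts and maintains the myelin programme, ran from 194 to 246 CPM in WT and from 203 to 240 CPM in P278KY/+ mice, a difference of -0.02 (SE 0.06). Nkx6-2, a homeobox factor of mature cells, differed by -0.05 (SE 0.07). All 6 estimates lay below 0, with a median of -0.070 and none below -0.12. On the log2(TPM + 1) scale those of Myrf, Nkx6-2 and Sox8 lay above 0, but none lay above the median of all genes on that scale, 0.062. Over all 27 genes that did not pass, the 95% intervals of the log2 change lay inside ±0.5, the lowest bound being -0.49 for Bcas1 and the highest 0.36 for Cldn11. That limit is wider than the called changes of Trf and Gjb1 (-0.28 and -0.35). Falls of that size lie inside the intervals of Bcas1 and Mbp, so the intervals do not show that the 27 genes were unchanged.

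**Figure D3:**
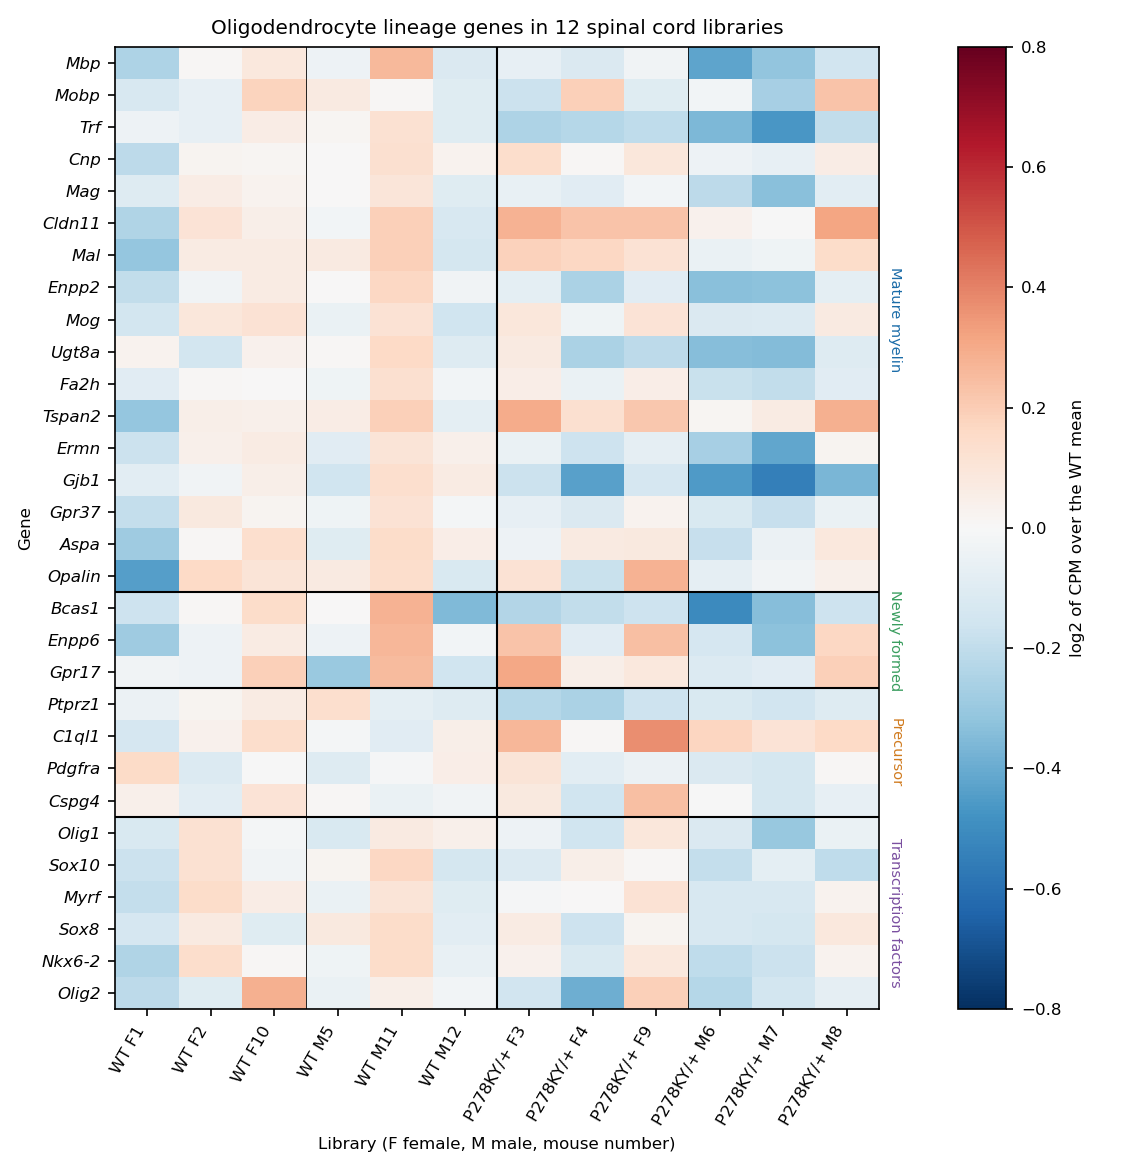
Log2 of CPM over the WT mean (colour) for the 30 lineage genes (rows, by stage) in the 12 libraries (columns, F female and M male with the mouse number). WT male 11 is the highest of 12 for 17 of 30 genes, WT female 1 and P278KY/+ male 7 are each the lowest for 10.

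Much of the spread in the lineage ran between single mice of a group. WT male 11 had the highest CPM of all 12 mice for 17 of the 30 genes and for 12 of the 17 mature genes. WT female 1 and P278KY/+ male 7 each had the lowest for 10 of the 30, 7 of them mature genes. Female 1 also had the highest muscle markers (8706 CPM) and male 7 the highest ganglion markers (60.1 CPM). The part of other tissue in these mice's levels was not tested. Without mice 1 to 4, Trf and Gjb1 kept their calls, with log2 changes of -0.33 and -0.40, and Ptprz1 lost it (adjusted p = 0.197). Without mice 7, 10 and 11 none of the 30 passed, and 253 of all genes did.

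Both sexes were then taken separately, since each group of sex and genotype held 3 mice. In males Trf and Gjb1 fell, with log2 changes of -0.35 and -0.47 and edgeR adjusted p of 0.0341 and 0.0257, where 1.55% of all genes passed. In females none of the 30 passed, where 0.573% of all genes did. Without adjustment 6 of the 30 and 2223 of the 17980 genes had p below 0.05 in females, and 9 and 2571 in males. The female estimates for Trf and Gjb1 were -0.21 and -0.22, with adjusted p of 0.248 and 0.342. The male calls were lost for Trf in 7 and for Gjb1 in 4 of the 12 fits without 1 mouse, with adjusted p up to 0.149 (Trf, without male 6) and 0.117 (Gjb1, without male 11). The test of the difference between the sexes passed for none of the 30 and for none of the 17980 genes (0%), by edgeR, while 1 of the 30 and 665 of all genes had an unadjusted p below 0.05. That 1 gene was Fa2h, at 0.04 in females and -0.18 in males (unadjusted p = 0.0132).

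The estimates themselves were lower in males for 28 of the 30 genes, against 49.2% of all genes tested. The median change was 0.016 in females and -0.123 in males. The exceptions were Ptprz1, at -0.23 in females and -0.11 in males, and Mobp, near 0 in both. Mbp stood at -0.02 in females and -0.34 in males (unadjusted p of the difference 0.067). The mice with extreme values above, WT male 11 and P278KY/+ male 7 on the male side and WT female 1 on the female side, enter these estimates directly, each as 1 of 3 mice.

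**Figure D4:**
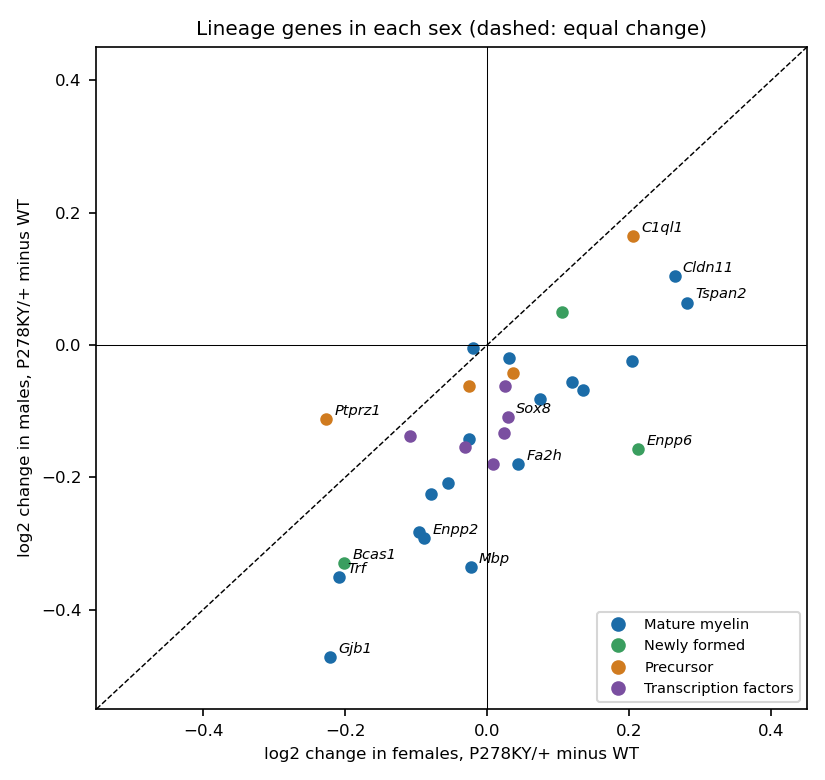
Log2 change of each lineage gene in females (horizontal axis) and in males (vertical axis), each from 3 P278KY/+ and 3 WT mice. Points under the dashed line of equal change are lower in males, as for 28 of 30 genes; Ptprz1 lies above it.

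Between males and females of all genotypes none of the 30 genes differed by edgeR, and none had an unadjusted p below 0.05, where 16 of all genes (0.089%) passed. The greatest difference among the 30 was 0.119 on the log2 scale. The mix of transcripts, measured as the abundance-weighted transcript length, could be compared for 14 of the 30 genes. None passed limma's test or had an unadjusted p below 0.05, where 2 of 10896 genes (0.0184%) passed, and the smallest p was 0.0777 for Enpp6 (2479 bases in WT, 2569 in P278KY/+ mice).

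Gjb1 and 7 others of the 30 (Mbp, Mag, Mal, Cnp, Ugt8a, Fa2h and Sox10) are also expressed by Schwann cells, whose markers were lower in P278KY/+ mice. Of the 14 Schwann cell markers 4 fell, where 2.95% of all genes did: Pmp2, Gldn, Dhh and Pmp22. Pmp2, a lipid carrier of peripheral myelin, stood at 18.1 to 35.9 CPM in WT against 1.1 to 1.96 CPM in P278KY/+ mice. In P278KY/+ females 3, 4 and 9 the 14 markers summed to 794.5, 1200 and 1293 CPM, and Gjb1 stood at 79.15, 66.0 and 81.5 CPM. In P278KY/+ males 6, 7 and 8 the sums were 1062, 1835 and 590.5 CPM, and Gjb1 stood at 65.3, 61.2 and 69.2 CPM. With the mean of the Schwann cell markers as a further term, added after seeing the data, the log2 change of Gjb1 was -0.45 with edgeR adjusted p = 0.0955 and that of Trf -0.41 with 0.0283. Since these markers were themselves lower in P278KY/+ mice, the term overlaps with genotype, and 188 of all genes passed with it against 956 without. A call lost with it does not show which cells changed. Of the 8 shared genes only Gjb1 passed the main test, where 5.32% of all genes did.

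**Figure D5:**
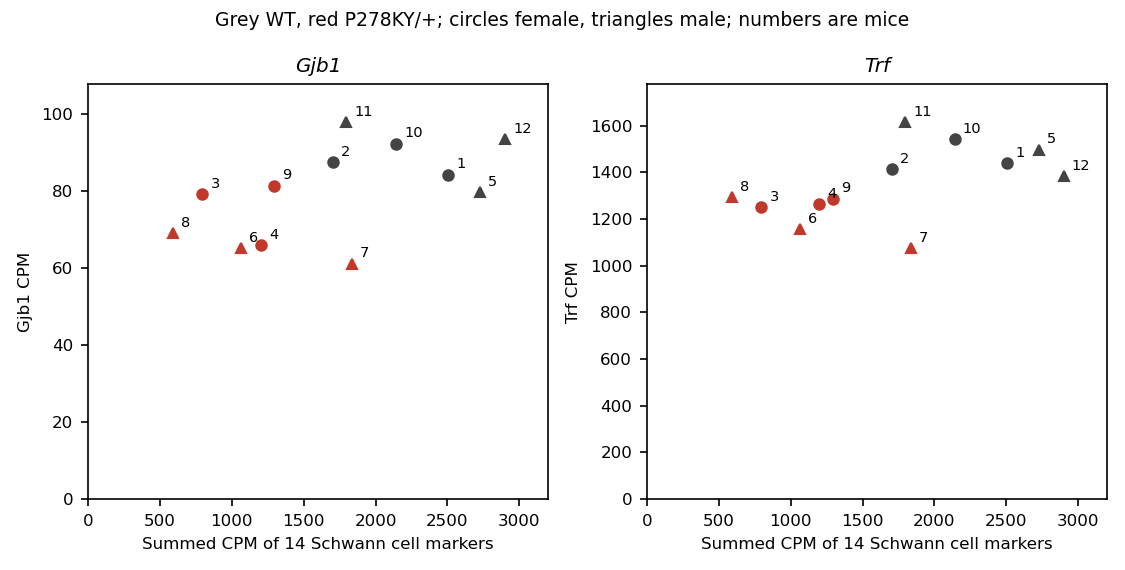
CPM of Gjb1 and Trf (vertical axes) against the summed CPM of 14 Schwann cell markers (horizontal axis) in each mouse, WT in grey and P278KY/+ in red, with mouse numbers. WT mice lie between 1704 and 2898 and P278KY/+ mice between 590.5 and 1835 on the horizontal axis.

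Further lineage genes outside the 30 were counted from lists of known markers. Of 33 other genes of the mature cell 4 fell and none rose, where 2.95% of all genes fell and 2.36% rose. Without adjustment 9 of the 33 had p below 0.05, all lower, or 27.3% against 20.2% of all genes. The median log2 change of the 33 was -0.096. Apod, a lipid-carrying lipocalin also made by fibroblasts, ran from 518 to 687 CPM in WT and from 423 to 480 CPM in P278KY/+ mice, with no overlap and a log2 change of -0.43 (SE 0.05, edgeR adjusted p = 0.000834). Cryab, a small heat shock protein, ran from 218 to 270 CPM in WT and from 152 to 206 CPM in P278KY/+ mice, again with no overlap (log2 change -0.41, SE 0.05, adjusted p = 0.000547). S1pr5, a receptor for sphingosine 1-phosphate, ran from 61.0 to 74.8 CPM in WT and from 50.3 to 59.0 CPM in P278KY/+ mice (log2 change -0.27, SE 0.05, adjusted p = 0.0128).

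Gja1 and Gjb6, which encode connexins of astrocytes, were picked after their values were seen. They differed by 0.08 (SE 0.05) and 0.07 (SE 0.05), with edgeR adjusted p of 0.470 and 0.479. Which of them pairs with Gjb1 was not tested.

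Of 14 other precursor genes 1 fell, where 2.95% of all genes did. It was the homeodomain factor Nkx2-2, at 16.9 to 20.2 CPM in WT against 12.4 to 18.4 CPM in P278KY/+ mice (log2 change -0.29, SE 0.07, edgeR adjusted p = 0.0321). Of 14 other genes of newly formed cells Kif19a fell and Mycl and Tmem163 rose, where 2.36% of all genes rose. Kif19a, a kinesin that trims microtubules, stood at 23.1 to 28.4 CPM in WT against 14.2 to 20.8 CPM in P278KY/+ mice, with no overlap and a log2 change of -0.53 (SE 0.09, adjusted p = 0.0053). Tmem163, a zinc transporter, rose by 0.20 (SE 0.05, adjusted p = 0.0416), and Mycl, a factor of the Myc family, by 0.20 (SE 0.05, adjusted p = 0.0343). Leaving out 1 mouse ended the call for Nkx2-2 in 9, for Mycl in 8 and for Tmem163 in 10 of 12 fits, with adjusted p up to 0.0883, and for Kif19a in none.

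Of 12 enzymes that make or break down myelin sphingolipids 1 fell, where 2.95% of all genes did. Elovl1, which lengthens fatty acids to the chains used in these lipids, stood at 53.7 to 61.4 CPM in WT against 41.8 to 50.9 CPM in P278KY/+ mice, with no overlap (log2 change -0.26, SE 0.05, edgeR adjusted p = 0.0051). Gal3st1, which turns the product of Ugt8a into sulfatide, had a log2 change of -0.22 (SE 0.06) and adjusted p = 0.0593. Of 20 signals and receptors that act on the lineage Cntf and Nrg1 fell, against the same 2.95% of all genes. Cntf, a cytokine made by Schwann cells and astrocytes that favours oligodendrocyte survival, stood at 9.18 to 14.6 CPM in WT against 5.84 to 9.39 CPM in P278KY/+ mice (log2 change -0.60, SE 0.10, adjusted p = 0.0036). Nrg1, an axonal growth factor for glia, stood at 18.5 to 22.8 CPM in WT against 16.7 to 18.9 CPM in P278KY/+ mice (log2 change -0.22, SE 0.05, adjusted p = 0.0360), and lost its call in 9 of 12 fits without 1 mouse, with adjusted p up to 0.0827. Motor neurons also make Nrg1, and the 5 motor neuron markers summed to 137 to 208 CPM in WT against 119 to 139 CPM in P278KY/+ mice. Their part in the level of Nrg1 was not tested.

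Without mice 7, 10 and 11, Kif19a, Cryab, Apod and Cntf kept their calls among these further genes, with log2 changes of -0.59, -0.37, -0.45 and -0.63. Nkx2-2, Mycl, Tmem163, S1pr5, Elovl1 and Nrg1 lost theirs, with adjusted p from 0.0510 for Elovl1 to 0.227 for Nkx2-2. With the Schwann cell markers as a further term, added after seeing the data, Cryab and S1pr5 kept their calls, with log2 changes of -0.49 and -0.40, and Kif19a, Apod, Cntf, Nkx2-2, Mycl, Tmem163, Elovl1 and Nrg1 lost theirs. The log2 change was then -0.22 for Kif19a (edgeR adjusted p = 0.362), -0.38 for Apod (0.0692) and -0.49 for Cntf (0.178). For Nkx2-2 it lay further from 0 than before, at -0.41 (0.114). The mean log2 CPM of the Schwann cell markers ran from 4.79 to 5.52 in WT against 3.56 to 4.91 in P278KY/+ mice. The term thus overlaps with genotype, and 188 of all genes passed with it against 956 without. A call lost with it does not show which cells changed.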

How the data were processed

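Polyadenylated RNA of whole spinal cord was sequenced from 12 mice, with stranded libraries and paired reads, per the labels' protocols. Per the submitters' processing notes, the tools were Bowtie2 2.2.0 for alignment and RSEM 1.2.12 for quantification. Of the genome build, annotation and strand setting, none is given in the sources used here. Per the file headers, the authors deposited for each mouse expected counts (estimated reads per gene, in which a read matching several genes is shared), TPM, FPKM and transcript lengths. The deposited FPKM values were not used. Groups came from the labels. The p-values set each difference against the spread between these mice, which edgeR estimates with help from the other genes.

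Expected counts were rounded. The filterByExpr rule of edgeR 4.0.16 over the 4 groups left 17980 of 38924 genes, with TMM scaling. Genotype was tested by edgeR's quasi-likelihood method (R 4.3.3) with sex and genotype over all 12 mice, Benjamini-Hochberg adjusted over all tested genes, threshold 0.05. A second fit of the 4 groups gave the change within each sex and the difference between them. The 95% intervals used 9 residual degrees of freedom. Lengths were tested with limma 3.58.1 on log2 values. DESeq2 1.42.0, limma voom, limma on log2(TPM + 1), other filters and scalings, and fits without single mice or sets of mice were alternatives. The fits were tested on simulated data.

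The 30 genes and all other lists were chosen with earlier results of these data known. Named are all 30 and, of each other list, the genes past the threshold if 4 or fewer, otherwise the 4 with the smallest p. Some genes of these lists are not reported here. Of the list entries 4 had no row in the tables (Adgrg1, 9630013A20Rik, Lhfpl3 and Slc18a3). Positions come from GENCODE M21 and promoter windows from RefSeq.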

Additional observations from a re-analysis of the deposited data

How the results depend on the processing

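Trf and Gjb1 stayed lower in P278KY/+ mice under all 25 alternatives, and Ptprz1 too. Passing genes numbered 1617 by DESeq2 (5 of the 30), 1467 by limma voom and 1606 on log2(TPM + 1), 557 without mice 1 to 4, and 253 (0 of the 30) without mice 7, 10 and 11. Chosen after seeing the data, a term for the Schwann cell markers left 188 (1 of the 30), and a term for the other mature markers left 360, with Gjb1 (-0.22) and Ptprz1 (-0.17) no longer passing, Trf at -0.17, and Tspan2, Cldn11 and Enpp6 higher. Both terms overlap with genotype, so calls gained or lost with them do not show which cells changed. Some estimates changed sign, and not only those near 0. Mbp, Cldn11, Tspan2 and Olig2, at -0.18, 0.18, 0.17 and -0.12 in the main fit, did so only with a marker term. By voom Mog (-0.03), Cnp (-8e-04), Opalin (-0.04) and Enpp6 (-0.04) changed sign. On log2(TPM + 1), where the median of all genes was 0.062, so did Mobp (0.06), Myrf (0.06), Nkx6-2 (0.04), Fa2h (0.0092), Aspa (0.06), Cspg4 (0.06), Pdgfra (0.03) and Sox8 (0.01). Without mice 1 to 4 they were Mog (-0.02), Cnp (-0.03), Mal (-0.0067) and Enpp6 (-0.08). Without mice 7, 10 and 11 they were Mobp (0.09), Myrf (0.04), Aspa (0.08), Cspg4 (0.03) and Nkx6-2 (0.001), and with the set of mice 9 to 12 as a term Myrf (0.01), Aspa (0.06) and Cspg4 (0.03). With the Schwann cell term they were Mog (-0.16), Cnp (-0.08), Cldn11 (-0.07), Mal (-0.1), Opalin (-0.11), Tspan2 (-0.04), Enpp6 (-0.27), Gpr17 (-0.18) and Cspg4 (0.02). With the mature marker term they were Mbp (0.0068), Mobp (0.1), Myrf (0.09), Gpr37 (0.01), Nkx6-2 (0.08), Fa2h (0.03), Aspa (0.12), Cspg4 (0.04), Olig1 (0.0057), Olig2 (0.0095) and Sox8 (0.06). Fits without 1 mouse passed 542 to 1385 genes, 2 to 4 of the 30, and gave ranges across 0 for Mog (-0.03 to 0.04), Mobp (-0.07 to 0.03), Cnp (-0.01 to 0.06), Opalin (-0.05 to 0.07), Enpp6 (-0.04 to 0.09), Myrf (-0.07 to 0.01), Aspa (-0.06 to 0.03) and Cspg4 (-0.05 to 0.04). In those fits the counts were 32 to 156 in females, 76 to 431 in males and 0 to 42 for the difference between the sexes, which was 1 without a filter and 4 with a stricter one. No paired analysis was possible because the groups share no mouse numbers. The causes were not tested.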
